A study of Mus musculus with 24 samples.

Results

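The genes described here are those of cholesterol and fatty acid synthesis, a list of 31 genes of the mevalonate branch, the sterol branch, the sensing and transport of sterols, and fatty acid synthesis and desaturation. Members were the rows of the array whose single gene symbol was on the list, with the brightest row taken for each gene. No measured difference entered this choice of rows, but the list itself was chosen with earlier results of these data known. Of the 31 genes, 30 had such a row, and Acat2, a cytosolic thiolase at the entry of the pathway, had none. All 30 passed the filter on dim rows, among 14489 genes tested in all.

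Gene expression was measured on 24 arrays of total RNA from MLO-Y4, a clonal mouse cell line with features of osteocytes, the mechanosensing cells inside bone. Cells of one arm, called E2 here, received the hemichannel-blocking antibody Cx43(E2), which binds connexin 43, at 28 µg/ml for 30 min. Cells of the other arm, called IgG, received an irrelevant rabbit IgG, which the protocol text names. In each arm, cells then stayed in the incubator (C) or were cultured at the 1g, 2g or ug position of a platform with a high magneto-gravitational environment (HMGE), where a strong magnetic field changes the effective gravity. The design gives 8 groups of 3 arrays: E2 C, E2 1g, E2 2g, E2 ug, IgG C, IgG 1g, IgG 2g and IgG ug. The time spent on the platform is not given in the sources used here, and every group, controls included, carries an antibody. The titles number the arrays 1 to 3 in each group, and a set here means the 4 arrays of one arm with the same number (E2 1 to E2 3 and IgG 1 to IgG 3). No label says that a set is a day, a batch or a culture, so p-values measure the spread between arrays, which may be technical.

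The first principal component of all 14489 genes held 44.6% of the variance and did not separate the arms. Sets E2 1 and E2 2 lay between 12.5 and 26.04 on it and set E2 3 between -12.41 and -6.899, while sets IgG 1 and IgG 2 lay between -22.7 and -8.31 and set IgG 3 between 3.727 and 9.281. Set E2 3 thus overlapped sets IgG 1 and IgG 2, and set IgG 3 lay on the side of sets E2 1 and E2 2, against the arm labels of both. Comparisons between groups are given with and without both sets. Of the osteocyte markers, Gja1 (connexin 43) and Pdpn were bright, at 11.68 and 12.70 on the log2 scale, Sost was at 7.07, and Dmp1, Mepe and Phex did not pass the filter, at 4.74, 4.60 and 4.61. In bulk RNA, fewer cells of a type and less RNA per cell cannot be told apart.

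Cholesterol is built from acetyl-CoA through mevalonate, isoprenoid units, squalene and lanosterol. When sterol in the endoplasmic reticulum falls, the escort protein SCAP carries the transcription factors SREBP-1 and SREBP-2 (genes Srebf1 and Srebf2) to the Golgi for cleavage, and INSIG proteins hold the complex back when sterol is ample. The cleaved factors bind sterol regulatory elements, usually beside NF-Y sites, and raise transcription of most genes of both branches, with SREBP-2 leaning to sterol genes and SREBP-1 to fatty acid genes.

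Promoter windows of the members were searched for sites that the SREBPs or NF-Y can bind, and for the GC box as a further motif. RefSeq windows (GRCm38.p6) were found for 24 of the 31 genes, 32 windows in all, and the 250 bases before the start site were searched on both strands. The consensus of the sterol regulatory element, TCACNCCAC, was found in 1 of the 32 windows (3.12%), that of Hmgcs1, and in 1.05% of all 32851 windows. The NF-Y motif CCAAT was found in 19 windows (59.4%), against 33.8% of all windows, the motif CACGTG, which SREBP-1 can also bind, in 5 windows (15.6%), against 6.02%, and the GC box GGGCGG in 23 windows (71.9%), against 32.7%. A match is only a match of letters.

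The 250 bases before the start site are printed for 4 genes, 5′ to 3′ along the gene, with matches to TCACNCCAC, to the NF-Y motif on either strand and to CACGTG in capitals. Hmgcs1, at chr13:119690101-119690350 (+ strand), is shown because it held the consensus element, which began 137 bases before the start site and lay among 3 NF-Y motifs. Insig1, at chr5:28071162-28071411 (+ strand), is the feedback gene of the pathway and held 1 CCAAT and 1 CACGTG. Nsdhl, at chrX:72918271-72918520 (+ strand), differed most between the IgG sets, and Idi1, at chr13:8885356-8885605 (+ strand), had the lowest E2 3 minus E2 1 difference of the members.
Hmgcs1: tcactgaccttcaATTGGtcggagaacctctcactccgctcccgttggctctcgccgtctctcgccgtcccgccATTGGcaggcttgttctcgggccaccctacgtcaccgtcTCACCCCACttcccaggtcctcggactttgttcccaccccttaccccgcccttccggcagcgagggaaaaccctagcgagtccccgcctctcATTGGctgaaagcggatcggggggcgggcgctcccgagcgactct
Insig1: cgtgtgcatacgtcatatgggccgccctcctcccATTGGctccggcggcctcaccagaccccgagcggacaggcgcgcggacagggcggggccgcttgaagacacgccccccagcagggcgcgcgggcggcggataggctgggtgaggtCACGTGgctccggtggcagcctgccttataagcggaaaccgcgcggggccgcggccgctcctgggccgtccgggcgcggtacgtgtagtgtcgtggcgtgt
Nsdhl: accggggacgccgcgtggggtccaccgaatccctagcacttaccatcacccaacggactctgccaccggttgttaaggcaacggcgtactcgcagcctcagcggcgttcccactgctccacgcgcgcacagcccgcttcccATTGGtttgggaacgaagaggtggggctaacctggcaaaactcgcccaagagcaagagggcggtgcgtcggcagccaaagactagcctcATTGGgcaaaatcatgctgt
Idi1: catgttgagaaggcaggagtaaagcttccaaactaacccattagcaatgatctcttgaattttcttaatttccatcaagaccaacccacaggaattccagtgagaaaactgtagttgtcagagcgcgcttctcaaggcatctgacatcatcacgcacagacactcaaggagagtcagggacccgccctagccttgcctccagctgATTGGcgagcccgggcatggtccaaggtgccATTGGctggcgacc
The windows of Nsdhl and Idi1 each held 2 NF-Y motifs and no match to the other 2 motifs in capitals.

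The members were expressed well above the middle of the array. Their mean levels over the 24 arrays ran from 7.95 (Tm7sf2, a sterol reductase) to 12.68 (Scd1, stearoyl-CoA desaturase), with a median of 10.40 on the log2 intensity scale, against 8.41 over all genes tested. Of the 30 members, 29 lay above that all-gene median. Levels of different probe sets cannot be ranked as amounts of RNA, so these are positions on the array's scale.

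The main pattern was a difference between sets. Most members were lower in set E2 3 than in the other E2 sets, and nearly all were higher in set IgG 3 than in the other IgG sets. With the environment as a covariate, so that the 4 arrays of a set served as its replicates, 21 of the 30 members differed between the 3 E2 sets by limma's moderated F-test (Benjamini-Hochberg adjusted p below 0.05 over all genes), against 39.3% of all genes. Between the IgG sets 29 of 30 differed, against 25.2% of all genes, and Scap, the sterol-sensing escort of the SREBPs, was the exception. The share of a gene's sum of squares within the E2 arm that lay between sets had a median of 66.8% over the members and 36.9% over all genes, while the share between environments had medians of 11.2% and 16%. In the IgG arm the medians between sets were 89.4% for members and 29.9% for all genes, and those between environments 4.55% and 25.6%. The remaining share had medians of 23.8% for members and 37.5% for all genes in the E2 arm. In the IgG arm these were 6.85% and 33%. The shares of a gene add up to its whole sum of squares, so a larger share between sets leaves less for the environments.

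**Figure D1:**
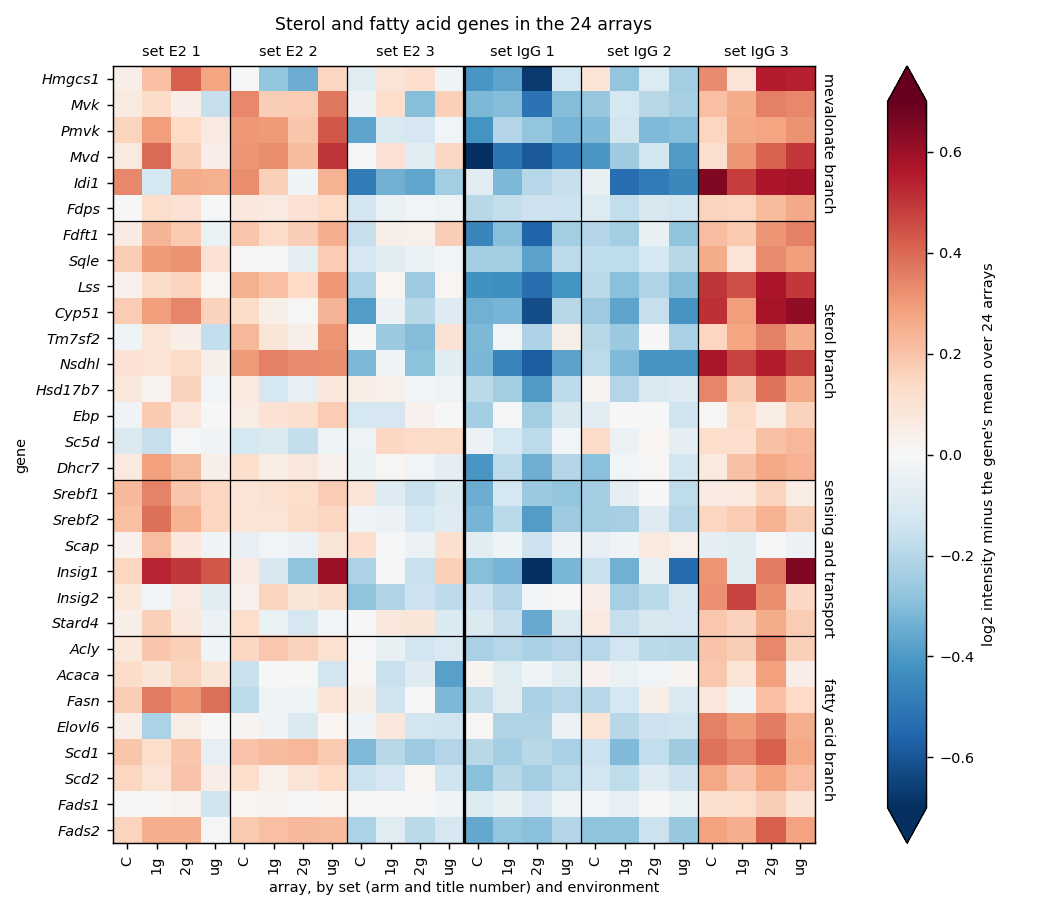
Heat map of the 30 measured genes (rows, by branch) in the 24 arrays (columns, by set and environment); colour gives the log2 intensity minus the gene's mean over all arrays, and values past 0.7 take the end colour. Set IgG 3 is red across nearly all rows, and sets IgG 1 and IgG 2 are mostly blue in all 4 environments.

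In the E2 arm the set that stood apart was E2 3, and pairs of sets were compared after the data were seen. Set E2 3 was below E2 1 for 18 members and above it for 1, where 17.3% of all genes were called lower and 18.4% higher. The members' median difference was -0.20, and that of all genes 0.03. Against E2 2 it was lower for 17 members and higher for 1, where 16.3% of genes were lower and 18.7% higher, with a member median of -0.18. Sc5d, which makes 7-dehydrocholesterol, was the member that was higher in E2 3 in both comparisons (0.17 ± 0.05 and 0.20 ± 0.05). E2 2 and E2 1 differed for 2 members, Nsdhl higher and Fasn lower in E2 2, against 0.932% of genes called higher and 1.67% lower. Both of these calls were lost when the 1g or the 2g arrays were left out. Between E2 3 and E2 1 all 4 arrays were lower for 16 members, against 13% of genes, and between E2 3 and E2 2 for 17, against 14.4%.

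Set IgG 3 was above IgG 1 for 29 members and below it for 0 (adjusted p below 0.05), where 10.8% of all genes were called higher and 13.3% lower. The members' median difference was 0.48 on the log2 scale, and the median of all genes was -0.000715. Set IgG 3 was above IgG 2 for 27 members and below it for 0, against 10.6% of all genes called higher and 15.3% lower, with a median member difference of 0.41. Between IgG 2 and IgG 1, 0 members were called, against 0.0138% of genes higher and 0.0483% lower. All 4 arrays of IgG 3 lay above all 4 of IgG 1 for 29 members, against 11.5% of genes, and above all 4 of IgG 2 for 25 members, against 11% of genes.

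**Figure D2:**
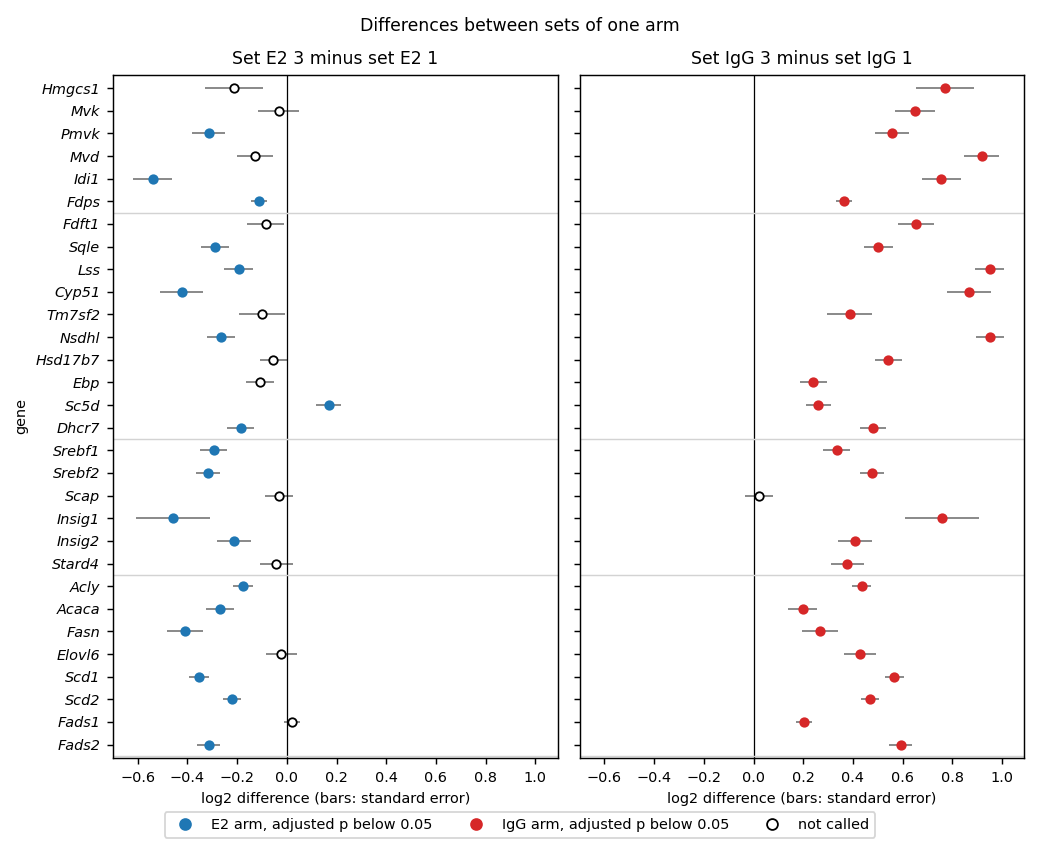
Difference of set E2 3 minus set E2 1 (left) and of set IgG 3 minus set IgG 1 (right) for the 30 genes, in log2 units, with standard errors; filled points had an adjusted p below 0.05. Of the E2 points, 18 filled ones lie left of 0 and 1 (Sc5d) right of it, and of the IgG points, 29 filled ones lie right of 0.

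In the mevalonate branch, which leads from acetyl-CoA to farnesyl diphosphate, 3 of 6 measured genes were called lower in E2 3 than in E2 1 (median difference -0.17), and all 6 higher in IgG 3 than in IgG 1 (median 0.70). The 3 that were lower in E2 3 were Idi1, which isomerises isopentenyl diphosphate (-0.54 ± 0.08, standard error), Pmvk, phosphomevalonate kinase (-0.32), and Fdps, farnesyl diphosphate synthase (-0.11). For IgG 3 minus IgG 1, Mvd, mevalonate diphosphate decarboxylase, had means of 10.10 in IgG 3 and 9.18 in IgG 1, a log2 difference of 0.92 ± 0.07 and a ratio of 1.89. Hmgcs1, the HMG-CoA synthase of the pathway, differed by 0.77 ± 0.12, and Idi1 by 0.76 ± 0.08. Mvk, mevalonate kinase, and Pmvk differed by 0.65 and 0.56, and Fdps by 0.36.

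Hmgcs1 read 9.82, 9.98, 10.19 and 10.05 in set E2 1, 9.77, 9.50, 9.43 and 9.92 in set E2 2 and 9.69, 9.86, 9.89 and 9.75 in set E2 3 (in the order C, 1g, 2g, ug, here and in the values by set that follow). Hmgcs1 in the IgG arm read 9.37, 9.40, 9.10 and 9.65 in set IgG 1, 9.87, 9.50, 9.68 and 9.53 in set IgG 2 and 10.10, 9.86, 10.32 and 10.32 in set IgG 3. The IgG 3 arrays lay above all IgG 1 arrays, although the C array of IgG 2 reached the lowest of them, and the 3 E2 sets overlapped. Idi1 read 10.92, 10.46, 10.84 and 10.83 in set E2 1, 10.91, 10.75, 10.56 and 10.83 in set E2 2 and 10.09, 10.25, 10.22 and 10.34 in set E2 3. Idi1 in the IgG arm read 10.51, 10.27, 10.38 and 10.42 in set IgG 1, 10.53, 10.05, 10.09 and 10.13 in set IgG 2 and 11.23, 11.07, 11.15 and 11.16 in set IgG 3. All 4 E2 3 arrays of Idi1 were below all other E2 arrays, and all 4 IgG 3 arrays above all other IgG arrays.

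In the sterol branch, from farnesyl diphosphate to cholesterol, 5 of 10 genes were called lower and 1 higher in E2 3 than in E2 1 (median difference -0.15). All 10 were higher in IgG 3 than in IgG 1 (median 0.52). In the E2 arm Cyp51, Sqle, Nsdhl, Lss and Dhcr7 were lower, with differences from -0.42 to -0.19, and Fdft1, Hsd17b7, Ebp and Tm7sf2 were not called. In the IgG arm the values were highest for Nsdhl, which removes methyl groups at carbon 4 of the sterol ring, and for Lss, lanosterol synthase. Nsdhl differed by 0.95 ± 0.06 (limma adjusted p = 1.78e-10, ratio 1.93) and Lss by 0.95 ± 0.06 (adjusted p = 2.71e-10, ratio 1.93). Cyp51, lanosterol demethylase, differed by 0.87 ± 0.09. The other genes ran from Fdft1, squalene synthase (0.65), and Hsd17b7, a sterol ketone reductase (0.54), to Ebp, a sterol isomerase (0.24).

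Nsdhl read 10.42, 10.41, 10.45 and 10.36 in set E2 1, 10.62, 10.67, 10.65 and 10.64 in set E2 2 and 10.00, 10.30, 10.04 and 10.25 in set E2 3. Nsdhl in the IgG arm read 10.00, 9.86, 9.74 and 9.95 in set IgG 1, 10.14, 10.01, 9.91 and 9.91 in set IgG 2 and 10.89, 10.79, 10.87 and 10.80 in set IgG 3. The 4 E2 2 arrays lay above all other E2 arrays and the 4 E2 3 arrays below them, and the lowest IgG 3 array was far above the highest other IgG array.

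Sqle, squalene epoxidase and a rate-limiting enzyme of the branch, read 11.53, 11.66, 11.67 and 11.46 in set E2 1, 11.37, 11.35, 11.29 and 11.53 in set E2 2 and 11.24, 11.28, 11.31 and 11.34 in set E2 3. Sqle in the IgG arm read 11.12, 11.12, 10.98 and 11.18 in set IgG 1, 11.18, 11.18, 11.23 and 11.16 in set IgG 2 and 11.62, 11.45, 11.69 and 11.65 in set IgG 3. Here IgG 3 lay above both other IgG sets with no overlap, and E2 3 overlapped E2 2. Lss read 10.38, 10.33, 10.45 and 10.37 in set IgG 3, against 9.46, 9.45, 9.35 and 9.46 in IgG 1 and 9.69, 9.59, 9.67 and 9.58 in IgG 2. The IgG sets of Lss were each in a range of their own.

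Among the genes that sense and move sterols, 4 of 6 were called lower in E2 3 than in E2 1 (median difference -0.25), and 5 of 6 higher in IgG 3 than in IgG 1 (median 0.39). Insig1, which holds back the SCAP complex and is itself an SREBP target, had a difference of -0.46 ± 0.15 for E2 3 minus E2 1 and of 0.76 ± 0.15 for IgG 3 minus IgG 1. Its standard errors were the largest of the 30 members. Srebf2 had -0.32 in the E2 arm and 0.48 in the IgG arm. Srebf1 had -0.29 in the E2 arm and 0.33 in the IgG arm, and Insig2, which retains the SCAP complex like Insig1, -0.21 and 0.41 in the same arms. Stard4, a cytosolic sterol carrier, had -0.04 ± 0.07 in the E2 arm (not called) and was higher in IgG 3 (0.38). Scap had -0.03 ± 0.06 in the E2 arm and 0.02 ± 0.06 in the IgG arm, neither called.

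Insig1 read 10.81, 11.19, 11.15 and 11.09 in set E2 1, 10.71, 10.54, 10.37 and 11.25 in set E2 2 and 10.44, 10.64, 10.50 and 10.82 in set E2 3. Insig1 in the IgG arm read 10.35, 10.33, 9.80 and 10.33 in set IgG 1, 10.50, 10.32, 10.60 and 10.11 in set IgG 2 and 10.96, 10.57, 11.02 and 11.30 in set IgG 3. Within sets E2 2 and IgG 3 the Insig1 arrays were widely spread, with the ug array highest in each. Srebf1 read 10.18, 10.31, 10.16 and 10.11 in set E2 1, 10.05, 10.07, 10.08 and 10.14 in set E2 2 and 10.05, 9.87, 9.81 and 9.86 in set E2 3. Srebf1 in the IgG arm read 9.61, 9.84, 9.70 and 9.68 in set IgG 1, 9.72, 9.89, 9.95 and 9.78 in set IgG 2 and 10.01, 10.03, 10.11 and 10.01 in set IgG 3. All E2 3 arrays were below all other E2 arrays, the C array only just.

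Srebf2 read 11.35, 11.52, 11.38 and 11.29 in set E2 1, 11.23, 11.23, 11.27 and 11.29 in set E2 2 and 11.11, 11.10, 11.01 and 11.05 in set E2 3. Srebf2 in the IgG arm read 10.81, 10.95, 10.75 and 10.88 in set IgG 1, 10.90, 10.91, 11.05 and 10.94 in set IgG 2 and 11.29, 11.31, 11.38 and 11.32 in set IgG 3. All E2 3 arrays were below all other E2 arrays, and all IgG 3 arrays above all other IgG arrays.

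**Figure D3:**
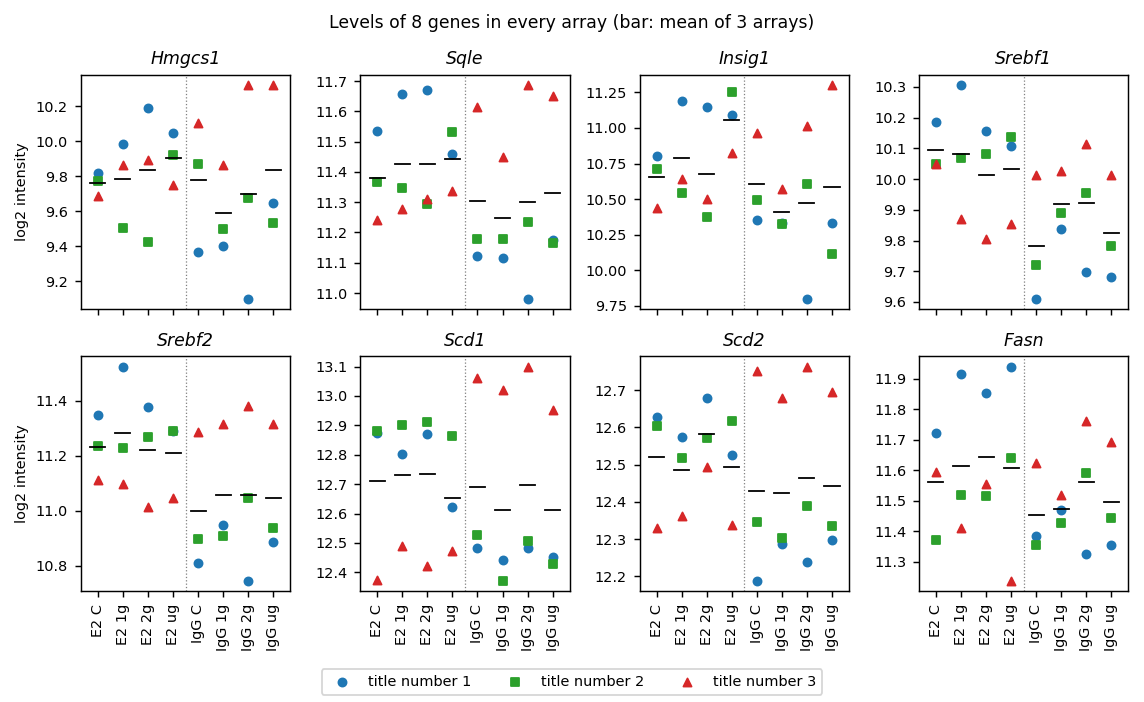
Log2 intensity of 8 genes in every array by group, E2 groups left of the dotted line and IgG groups right of it; the symbol gives the number in the title and the bar the mean of 3 arrays. For Scd1, Scd2 and Srebf2 the triangles (number 3) are the lowest E2 points and the highest IgG points in every group, and the bars differ little between environments.

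In fatty acid synthesis and desaturation, 6 of 8 genes were called lower in E2 3 than in E2 1 (median difference -0.24), and all 8 higher in IgG 3 than in IgG 1 (median 0.43). In the E2 arm Fasn, fatty acid synthase, had the largest difference of the branch (-0.41 ± 0.07), followed by Scd1 (-0.35 ± 0.04) and Fads2, the delta-6 desaturase (-0.32 ± 0.05). Acaca, acetyl-CoA carboxylase, Scd2, a paralogue of Scd1, and Acly, which makes cytosolic acetyl-CoA from citrate, were also lower (-0.27, -0.22 and -0.18). Elovl6, which lengthens palmitate, and Fads1, the delta-5 desaturase, were not called (-0.02 ± 0.06 and 0.02 ± 0.03). In the IgG arm Fads2 had the largest difference (0.59 ± 0.05), then Scd1 (0.57 ± 0.04) and Scd2 (0.47 ± 0.04). Acly and Elovl6 both had 0.43, and Fasn, Fads1 and Acaca the smallest differences of the branch (0.27, 0.20 and 0.20).

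Scd1 read 12.88, 12.80, 12.87 and 12.62 in set E2 1, 12.88, 12.90, 12.91 and 12.86 in set E2 2 and 12.37, 12.49, 12.42 and 12.47 in set E2 3. Scd1 in the IgG arm read 12.48, 12.44, 12.48 and 12.45 in set IgG 1, 12.53, 12.37, 12.51 and 12.43 in set IgG 2 and 13.06, 13.02, 13.10 and 12.95 in set IgG 3. In both arms set 3 lay clear of the other sets, below them in E2 and above them in IgG, while sets 1 and 2 overlapped. Scd2 read 12.63, 12.58, 12.68 and 12.52 in set E2 1, 12.60, 12.52, 12.57 and 12.62 in set E2 2 and 12.33, 12.36, 12.49 and 12.34 in set E2 3. Scd2 in the IgG arm read 12.19, 12.29, 12.24 and 12.30 in set IgG 1, 12.35, 12.30, 12.39 and 12.34 in set IgG 2 and 12.75, 12.68, 12.76 and 12.70 in set IgG 3. All IgG 3 arrays of Scd2 were above all other IgG arrays, and the E2 3 arrays were below all other E2 arrays.

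Fasn read 11.72, 11.92, 11.85 and 11.94 in set E2 1, 11.37, 11.52, 11.52 and 11.64 in set E2 2 and 11.59, 11.41, 11.55 and 11.24 in set E2 3. Fasn in the IgG arm read 11.38, 11.47, 11.33 and 11.35 in set IgG 1, 11.35, 11.43, 11.59 and 11.44 in set IgG 2 and 11.62, 11.52, 11.76 and 11.69 in set IgG 3. Its E2 1 arrays were above all other E2 arrays, and the 1g array of IgG 3 lay inside the range of IgG 2. Fasn was not called between IgG 3 and IgG 2 (adjusted p = 0.0539 by limma).

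Ranked by the F-test, the members that differed most between the E2 sets were Scd1 (F = 71.8), Nsdhl (40.4), Fads2 (34.5), Idi1 (31.2), Pmvk (24.3) and Scd2 (23.4). Between the IgG sets they were Nsdhl (174), Lss (149), Scd1 (138), Scd2 (98.5), Fads2 (97.8) and Mvd (85.9). Over all 6 sets, IgG 3 had the highest mean for 22 of the 30 members, E2 1 for 5 (Srebf1, Srebf2, Scap, Insig1 and Fasn) and E2 2 for 3 (Pmvk, Mvd and Ebp). The lowest mean was in IgG 1 for 24 members, in E2 3 for 3, in IgG 2 for 2 and in E2 2 for 1. Over all genes, 11.6% had their highest mean in IgG 3, 18.7% in E2 1 and 13.5% in E2 2. The lowest mean was in IgG 1 for 19.4% of all genes, in E2 3 for 18.8%, in IgG 2 for 12% and in E2 2 for 17.4%.

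Related genes outside the list were counted in the same comparison. Of 25 further genes of sterol and fatty acid metabolism, 20 were tested, with 4 called higher and 5 lower in E2 3 than in E2 1 (median difference -0.04) and 8 higher and 2 lower in IgG 3 than in IgG 1 (median 0.13). Acss2, a cytosolic acetyl-CoA synthetase, was lower in E2 3 (-0.51) and higher in IgG 3 (0.86), and Erlin1, which binds cholesterol in the endoplasmic reticulum, was higher in E2 3 (0.48) and lower in IgG 3 (-0.34). Msmo1, a sterol methyl oxidase, and Lpin1, a phosphatidate phosphatase, were not called in the E2 arm (-0.18 and -0.17) and were higher in IgG 3 (0.69 and 0.67). Of 16 genes of cholesterol export, storage and breakdown, 14 were tested, with 2 higher and 3 lower in E2 3 (median -0.03) and 3 higher and 2 lower in IgG 3 (median 0.05). Shares of all genes were 18.4% higher and 17.3% lower in E2 3 and 10.8% higher and 13.3% lower in IgG 3. The counts in the E2 arm were thus near these shares for both lists, and in the IgG arm the 8 of 20 that were higher were above theirs.

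Some cell type markers also differed between these sets. For E2 3 minus E2 1, 18.4% of all genes were called higher and 17.3% lower. For IgG 3 minus IgG 1, 10.8% were called higher and 13.3% lower. Both measured osteoblast markers that passed the filter (2 of 4 on the array), Alpl and Col1a1, were lower in E2 3 than in E2 1 (-0.58 and -0.84) and higher in IgG 3 than in IgG 1 (0.45 and 0.42). The osteoblast list's mean level by set was 7.87, 7.82 and 7.53 in E2 1 to E2 3 and 7.53, 7.60 and 7.83 in IgG 1 to IgG 3. Of 6 macrophage markers, 3 passed, with 2 higher in E2 3 than in E2 1 (Cd68 by 0.88) and all 3 lower in IgG 3 than in IgG 1 (Cd68 by -1.03), and list means of 6.31, 6.32 and 6.59 in the E2 sets and 6.56, 6.58 and 6.29 in the IgG sets, although Ptprc and Adgre1, which define the type, did not pass. Adipocyte markers, of which 6 of 8 passed and Adipoq and Lep did not, had set means between 6.96 and 7.05. In both comparisons 1 was higher and 1 lower, in opposite directions. Fabp4 was higher in E2 3 (0.66) and lower in IgG 3 (-0.30). Retn was lower in E2 3 (-0.57) and higher in IgG 3 (0.36). Liver (1 of 3 passed, Alb not) and endothelial markers (3 of 4 passed) had 0 calls. Of 9 osteocyte markers, 6 passed, with 0 higher and 2 lower in E2 3 than in E2 1 and 1 higher and 1 lower in IgG 3 than in IgG 1. Gja1 had -0.40 in the E2 arm and 0.37 in the IgG arm, whereas Pdpn had 0.04 (not called) in the E2 arm and was lower in IgG 3 (-0.13). The part of these differences in the result was not tested.

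The first question of the design was whether the HMGE positions changed gene expression. No member was called at any position in either arm. In the E2 arm the counts called were 0 of 30 at 1g, 2g and ug and for the mean of the 3 positions, each against C, where 0% of all genes were called in each. At an unadjusted p below 0.05 the counts were also 0 of 30, where 3.13%, 1.97%, 4.22% and 2.8% of all genes passed. In the IgG arm the counts were again 0 of 30 in each, with 0% of all genes called, and 0 of 30 at an unadjusted p below 0.05, where 6.11%, 8.78%, 5.16% and 9.99% of genes passed. Member medians were 0.05, 0.03 and 0.02 at 1g, 2g and ug in the E2 arm and -0.01, 0.01 and 0.03 in the IgG arm.

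With set as a block within each arm, each position is compared with the C array of the same set. Adjusted calls among the members were again 0, where all genes gave 0.0483% (IgG 1g), 0.704% (IgG platform mean) and 0% elsewhere. At an unadjusted p below 0.05, members numbered 0, 0, 1 and 0 in the E2 arm (1g, 2g, ug and platform mean), against 6.77%, 4.91%, 10.2% and 6.93% of all genes. In the IgG arm they numbered 8, 5, 2 and 5 of 30, against 15.2%, 17.6%, 10.9% and 20.3% of all genes.

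The leading member in the IgG arm was Dhcr7, the last reductase of cholesterol synthesis. It read 9.54, 9.70 and 9.92 at 1g, 9.38, 9.72 and 9.99 at 2g and 9.51, 9.59 and 9.96 at ug, against 9.31, 9.43 and 9.79 in C (sets 1 to 3 in order). Every platform array was above the C array of its own set, while the groups overlapped across sets. The platform mean minus C was 0.19 ± 0.12 without the block (limma adjusted p = 0.58) and had a standard error of 0.05 with it (adjusted p = 0.0652). Next came Mvd (0.23 ± 0.07 with the block, adjusted p = 0.0942) and Idi1 (-0.23 ± 0.07, adjusted p = 0.11) by limma. All 9 platform arrays of the IgG arm were above the C array of their own set for 3 of 30 members (Pmvk, Mvd and Dhcr7), against 6.69% of genes, and below it for 2 (Idi1 and Nsdhl), against 9.06%. Elovl6 followed in the fit without the block (-0.15 ± 0.12).

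In the E2 arm the leading value was Insig1 at ug. It read 11.09, 11.25 and 10.82 at ug, against 10.81, 10.71 and 10.44 in C, a difference of 0.40 ± 0.29 without the block (limma adjusted p = 1). With the block the standard error was 0.17 and the adjusted p 0.417. Each E2 ug array of Insig1 was above the C array of its set, whereas in the IgG arm 1 of the 3 ug arrays was. Ebp had the smallest p at 1g and 2g (0.09 ± 0.10 and 0.11 ± 0.10, neither called), and its 9 platform arrays were all above the C array of their set. It was the 1 member of 30 with this order in the E2 arm, where 1.3% of genes had it, and 0 members had the opposite order, against 2.01%. Fdps led with the block for the platform mean (0.06 ± 0.03).

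Positions compared with each other gave no call either. For 2g minus 1g and ug minus 1g, 0 members and 0% of genes were called in each arm, and 0 members had an unadjusted p below 0.05, where 2.46% and 3.54% of genes did in the E2 arm and 1.79% and 1.12% in the IgG arm. Hmgcs1 had the largest such value in the IgG arm, 0.25 ± 0.26 for ug minus 1g.

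Without sets E2 3 and IgG 3 the platform comparisons also gave 0 called members, and 0% of genes were called. At an unadjusted p below 0.05 members then numbered 1, 0, 1 and 0 in the E2 arm (1g, 2g, ug and platform mean, each against C), where 6.89%, 1.95%, 6.7% and 4.15% of genes passed. In the IgG arm they numbered 3, 2, 0 and 3, where 11.9%, 18.4%, 7.03% and 17.2% of genes passed. For 2g minus 1g and ug minus 1g the counts were 0 and 1 in the E2 arm, against 3.47% and 10.2% of genes, and 0 and 0 in the IgG arm, against 6.26% and 3.14%.

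The second question was whether the Cx43(E2) antibody changed expression. With all arrays, E2 was higher than IgG for most members, but by less than the spread. At C, 1g, 2g and ug, 0 of 30 members were called, against 2.92%, 0%, 0% and 0% of all genes. At an unadjusted p below 0.05 the member counts were 1, 0, 0 and 0, against 29.9%, 12.5%, 4.32% and 12.9% of genes. Members higher in E2 numbered 23, 25, 23 and 24 of 30, with medians of 0.06, 0.13, 0.09 and 0.08. The medians of all genes were 0.0225, -0.0093, -0.000237 and -0.00343. Srebf1 at C read 10.18, 10.05 and 10.05 in E2, against 9.61, 9.72 and 10.01 in IgG, a difference of 0.31 ± 0.13 (limma adjusted p = 0.128). All 3 E2 arrays of Srebf1 were above all 3 IgG arrays, the nearest being 10.05 and 10.01. The share of all genes with this order is not set beside it. Mvd had differences of 0.48 ± 0.27, 0.42 ± 0.27, 0.20 ± 0.27 and 0.36 ± 0.27 at C, 1g, 2g and ug, none called. Averaged over environments, the 3 E2 set means overlapped the 3 IgG set means for 30 of 30 members, where 15.4% of all genes were clear above and 12.4% clear below, and 3 against 3 cannot give an exact p under 0.1.

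The counts changed when sets E2 3 and IgG 3 were left out. Without both, which leaves 2 arrays a group, members called higher in E2 numbered 16, 16, 15 and 14 of 30 at C, 1g, 2g and ug. Of all genes, 11.7%, 9.86%, 6.72% and 7.25% were called higher. Members called lower numbered 0 in each environment, where 18.1%, 15.3%, 6.95% and 16.7% of all genes were called lower. The members' medians were then 0.34, 0.31, 0.34 and 0.31, and those of all genes 0.03, 0.01, -0.02 and -0.01. In all 4 environments 12 members were called higher, against 3.53% of genes. These were Mvd, Pmvk, Idi1 and Fdps of the mevalonate branch, Nsdhl, Lss and Cyp51 of the sterol branch, Srebf2, and Scd1, Scd2, Fads2 and Acly of fatty acid synthesis. These sets were left out after their values had been seen, because they lay against their arm labels on the first principal component, so the counts describe the 4 remaining sets and are not a test of the antibody.

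In those 4 sets Mvd at C read 9.83 and 10.07 in E2, against 9.00 and 9.35 in IgG, a difference of 0.77 ± 0.16. Set E2 3 had 9.76 and set IgG 3 9.88. For Nsdhl at 2g the values were 10.45 and 10.65 in E2, against 9.74 and 9.91 in IgG (0.72 ± 0.11), with 10.04 in set E2 3 and 10.87 in set IgG 3. In both genes the sets left out had the opposite order. Leaving out set E2 3 alone gave 0 called members at C, against 4.07% of genes. Leaving out set IgG 3 alone gave 2 of 30, Mvd (0.71 ± 0.17, limma adjusted p = 0.0394) and Dhcr7 (0.40 ± 0.11, adjusted p = 0.0491), which is near the 5.16% of all genes called.

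**Figure D4:**
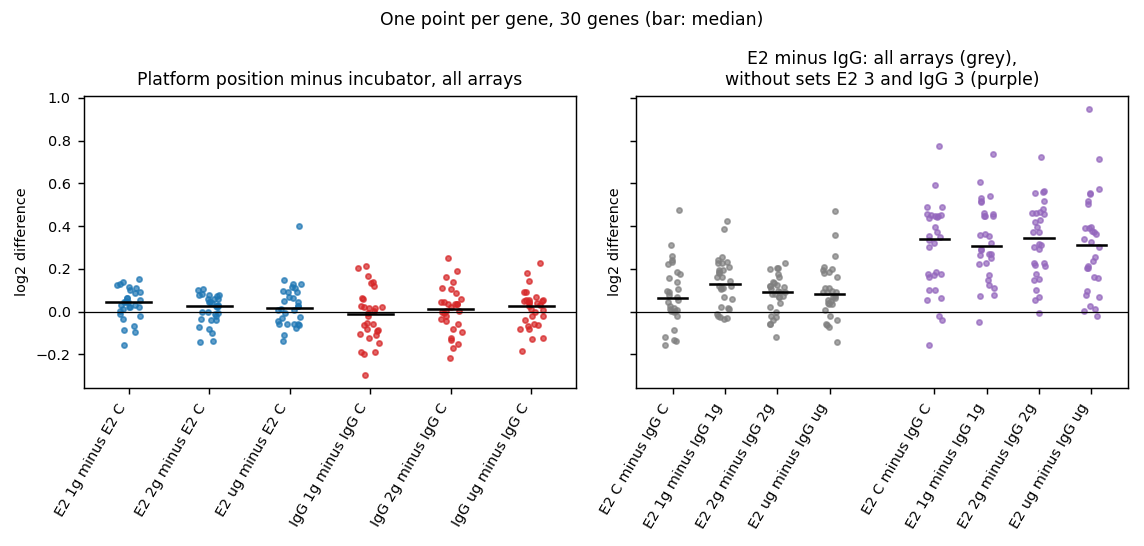
Log2 differences of the 30 genes, 1 point a gene, with medians as bars: each platform position minus C in the E2 and IgG arms (left), and E2 minus IgG in each environment with all arrays and without sets E2 3 and IgG 3 (right). Platform medians lie between -0.01 and 0.05, and the E2 minus IgG medians lie between 0.06 and 0.13 with all arrays and between 0.31 and 0.34 without the 2 sets.

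The third question was whether the antibody altered the response to the platform. The difference between arms in position minus C was called for 0 members and 0% of genes at 1g, 2g, ug and for the platform mean, and 0 members had an unadjusted p below 0.05, where 4.7%, 5.98%, 3.61% and 6.66% of genes did. Without sets E2 3 and IgG 3 the counts were again 0 members called with 0% of genes, and 0 members at an unadjusted p below 0.05, where 2.92%, 7.69%, 4.74% and 5.18% of genes passed. The leading members were Sc5d at 1g (0.13 ± 0.15), Tm7sf2 at 2g (-0.30 ± 0.25) and Dhcr7 at ug (-0.22 ± 0.21). With the block, Nsdhl led for the platform mean (0.21 ± 0.07, limma adjusted p = 0.333).

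Idi1, Fdft1 and Acaca had a second row on the array, which had the same direction in both arms. In E2 3 minus E2 1 the rows used gave -0.54, -0.09 and -0.27 and the second rows -0.52, -0.10 and -0.38. In IgG 3 minus IgG 1 the rows used gave 0.76, 0.65 and 0.20 and the second rows 0.76, 0.52 and 0.15.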

How the data were processed

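Total RNA of 24 MLO-Y4 samples was measured on 1-colour arrays. The deposited values, 1 per probe set and array, were taken as log2 intensities already normalized by the authors. No label states the scale, which was judged from the values (2.36 to 14.06, array medians 6.48 to 6.65). Per the submitters' processing notes MAS5 was a processing tool, and its role is not given in the sources used here. Raw scanner signals were not used here, so background and saturation could not be checked, and the number of arrays limits the precision.

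Of 35556 probe sets, 21789 had 1 gene symbol in the platform annotation, and 21698 of these symbols matched RefSeq. Probe sets above the 40th percentile of the array on at least 3 arrays were kept (22641), and the brightest was taken per gene, which left 14489 genes. Arms, environments and title numbers were read from the labels. No 2 arrays of a group held the same values.

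The 8 group means were fitted to all 24 arrays in limma 3.58.1 (R 4.3.3, lmFit, eBayes with trend), two-sided, with Benjamini-Hochberg adjustment over all genes of a comparison and a threshold of 0.05. Sets were compared with a moderated F-test beside the 8 groups. The fits were tested on simulated data. The rule for named genes gave values by array to 8 genes picked by role and to at most 3 members leading a comparison by p, and named up to 6 members per arm by the F-test. Related genes were named only if called, and arrays of Mvd and Nsdhl without sets E2 3 and IgG 3 were picked with their values known. The pairwise set differences, the overlap of set means, the signs within sets and the fit without sets E2 3 and IgG 3 were added after the data were seen. The members, lists and the rules for them were chosen with earlier results of these data known.

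Deviations from the group means correlated between arrays of the same number within an arm in 36 of 36 pairs (r = 0.195 to 0.812), and 20 of 24 arrays correlated best with their own number. For different numbers r ran from -0.675 to 0.548, and between arms the same number gave -0.748 to -0.0141. No label gives this pairing, which was read from the values alone. The alternatives were replicate blocks, quantile scaling, no filter, the mean of a gene's probe sets, no trend, a fit to the compared arrays alone, and the omission of single sets or environments. Promoter sequences are RefSeq's, on GRCm38.p6, and the build behind the array's annotation is not given in the sources used here.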

Additional observations from a re-analysis of the deposited data

How the results depend on the processing

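With set as a replicate block within each arm, 0 members were called in each platform comparison and each difference between arms in it, as without the block, while all genes called numbered 7 for IgG 1g minus IgG C and 102 for the IgG platform mean minus IgG C, against 0 for both without it. That block could not be fitted for E2 minus IgG in one environment, where the number over all arrays and the set as a random term (consensus correlation 0.355) gave 0 members. Members called for E2 minus IgG numbered 16, 16, 15 and 14 at C, 1g, 2g and ug without sets E2 3 and IgG 3, against 0 with them. Without these sets 29.8%, 25.1%, 13.7% and 23.9% of all genes were called in either direction, and the cause was not tested. Leaving out 1 set at a time gave 0 to 2 members at C (2 without IgG 3, namely Mvd and Dhcr7, where 748 genes or 5.16% were called). All genes called at C numbered 423, with 46 after quantile scaling, 60 without the filter, 0 with set as a random term or with only the arrays compared, and 0 to 1355 with 1 set left out. For E2 1g minus IgG 1g, leaving out E2 3 gave 773 genes, against 0. The set F-test called 18 to 24 members in the E2 arm (21 as reported) and 26 to 29 in the IgG arm (29 as reported) under the alternatives run. For E2 3 minus E2 1 the range was 14 to 21 and for IgG 3 minus IgG 1 27 to 29. These ranges count members alone, and the share of all genes called under each alternative is not set beside them. For E2 2 minus E2 1 (2 as reported), 1 member was called with no trend, 1 without the C arrays, and 0 without the 1g arrays, without the 2g arrays or with only the arrays of that arm. For IgG 2 minus IgG 1 (0 as reported), 1 was called without the ug arrays. No reported direction of a called value turned in these alternatives. Quantile scaling moved no median of all genes by over 0.1.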
